A study of Mus musculus with 8 samples.

Results

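The genes described here are the subunits of the transcription factor NF-κB and inhibitors that restrain it, most of which NF-κB itself induces, taken from the count table by symbol. Of 10 such genes, 9 were found among the 18088 genes of the table, namely the 5 subunits Nfkb1, Nfkb2, Rel, Rela and Relb and the 4 inhibitors Nfkbia, Nfkbib, Nfkbiz and Tnfaip3. Nfkbie was not analysed here. The cells were wildtype mouse adipocytes, which the study differentiated from 3T3-L1, a fibroblast-like line that stores fat in culture. 4 libraries came from adipocytes that received siRNA against Erk3 (siErk3) and 4 from adipocytes that received a nontargeting siRNA (siNTC), with 1.25 nM siRNA per square centimeter and 48 h between transfection and harvest in both groups. Erk3 is an atypical MAP kinase, and the comparison of siErk3 with siNTC asks which transcripts depend on it. Each siRNA was a purchased pool, and 1 pool per group was used, so an effect of losing Erk3 cannot be told apart from an effect of the pool. The sources used here do not say whether the libraries of a group were separate differentiations, so p-values measure the spread between these libraries, which may be technical.

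NF-κB proteins act as pairs of subunits that share a Rel homology domain, which binds DNA and holds the pair together. In resting cells the pairs are kept in the cytoplasm by IκB proteins. Signals from cytokine receptors, Toll-like receptors or sensors of foreign nucleic acid activate the IκB kinases, IκB is degraded, and the released pairs enter the nucleus. Several inhibitors are themselves target genes, so that activation is followed by negative feedback. In adipocytes this pathway drives the secretion of chemokines and is known for opposing insulin action.

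The libraries held between 9854522 and 9943572 counts each, and values below are CPM, counts scaled to a common library size with TMM factors, unless they are given per length. Mapk6, which encodes Erk3, fell from 579 ± 18.1 CPM to 69.6 ± 4.80 CPM (SD, n = 4 libraries each, log2 fold change -3.06, adjusted p = 2.09e-22, quasi-likelihood test of edgeR). Of 10 adipocyte markers, all were measured, with 9 lower and 1 higher. Their summed level was 19250 to 21640 CPM in siNTC and 12140 to 12480 CPM in siErk3 libraries. Over all genes tested, 23.8% were called lower and 24.9% higher. Of 11 macrophage and leukocyte markers, 3 were in the table, with a summed level of 9.89 to 14.5 CPM in siNTC and 20.4 to 24.97 CPM in siErk3 libraries. Of these, Cd14 and Cd68 were higher and Csf1r was not called, and the defining markers Ptprc, Adgre1 and Itgam were not analysed here. Of 6 preadipocyte and fibroblast markers 5 were tested and all 5 were lower, and of 4 endothelial markers only Pecam1 was tested and was not called. Cd68 and Pecam1 had siNTC means of 0.834 and 0.914 CPM. The table holds genes above 1 CPM in at least 4 libraries, so both entered through their siErk3 level. Their direction was therefore not free, and the higher call of Cd68 carries little weight. The part of these markers in the results below was not tested. In bulk RNA, fewer cells of a type and less RNA per cell cannot be told apart.

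In siErk3 adipocytes 5 of the 9 NF-κB genes were higher than in siNTC adipocytes, and none was lower. The higher genes were the subunits Relb and Rela and the inhibitors Nfkbiz, Nfkbib and Nfkbia, and the rises were small, between 1.17-fold and 1.63-fold. At an adjusted p under 0.05, 24.9% of the 17972 genes tested were called higher, 23.8% lower and 48.7% in either direction. All 9 genes passed the filter on low counts, and all 9 had a positive log2 fold change, so that none was lower at an unadjusted p under 0.05 either, and none was called lower by DESeq2 or limma-voom. The median log2 fold change was 0.24 over the 9 genes and 0.0009 over all genes tested. In 6 of the 9 genes every siErk3 library lay above every siNTC library, which held for 22.5% of all genes tested, while 20.7% of all genes had every siErk3 library below. None of the 9 genes rose at least 2-fold, a change seen upward in 4.11% of all genes tested.

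**Figure D1:**
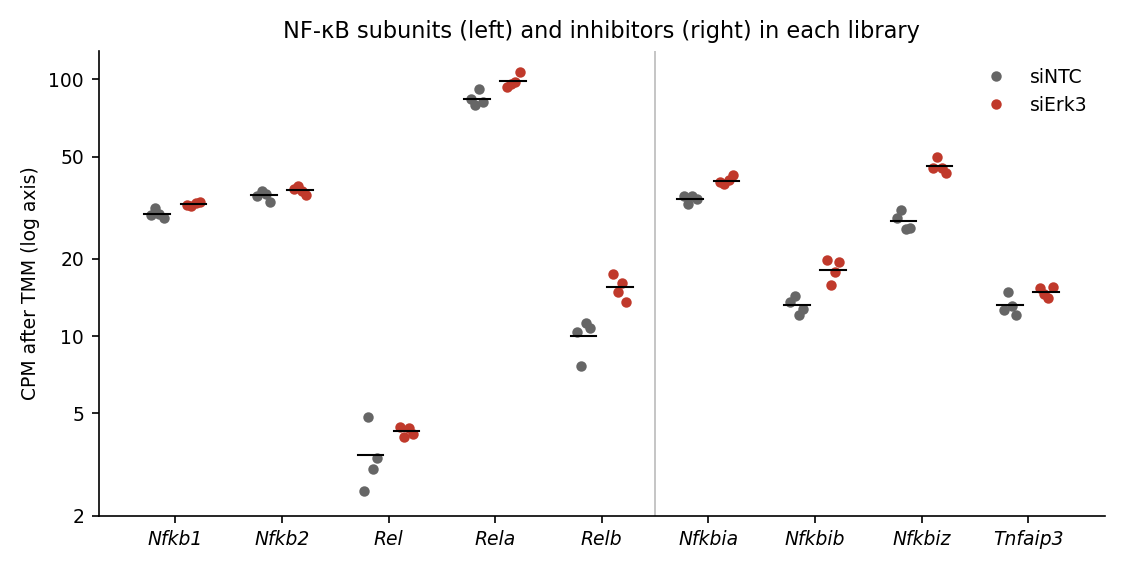
CPM after TMM of the 5 NF-κB subunits and 4 inhibitors in each of the 4 siNTC (grey) and 4 siErk3 (red) libraries on a log axis, with points for libraries and short lines for group means. The groups are farthest apart in Nfkbiz, and they overlap in Nfkb2, Rel and Tnfaip3.

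Among the subunits, Rela was the most abundant. It encodes RelA (p65), the subunit with a transactivation domain that carries most of the transcriptional activity of the classical pathway, and lies on the plus strand of chromosome 19 of mm10 from 5637483 to 5648130. The siNTC libraries held 83.8, 79.1, 91.7 and 81.8 CPM of Rela (replicates 1 to 4 here and below), and the siErk3 libraries 93.1, 96.3, 97.6 and 107 CPM. The groups did not overlap, although siNTC replicate 3 came within 1.30 CPM of the lowest siErk3 library. The rise was 1.17-fold (95% interval 1.08 to 1.28), a log2 fold change of 0.23 (SE 0.06, edgeR adjusted p = 0.00279). The bases upstream of the RefSeq start of Rela are shown because this called subunit had no match to the κB motif there (chr19:5637291-5637482, GRCm38.p6, plus strand, up to the first annotated exon).
Rela: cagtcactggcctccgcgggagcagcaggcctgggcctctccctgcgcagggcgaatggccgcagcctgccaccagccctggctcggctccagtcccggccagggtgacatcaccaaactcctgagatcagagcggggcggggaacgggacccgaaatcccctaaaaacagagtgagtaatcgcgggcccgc

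Relb showed the largest change of a subunit. RelB pairs with p52 in the noncanonical pathway, which tumor necrosis factor family receptors such as the lymphotoxin β receptor switch on. Its gene lies on the minus strand of chromosome 7 from 19606217 to 19629438. Relb was at 10.4, 7.64, 11.3 and 10.7 CPM in the siNTC libraries and at 17.5, 14.8, 16.1 and 13.6 CPM in the siErk3 libraries. Replicate 2 was the lowest of the siNTC libraries and replicate 4 the lowest of the siErk3 libraries, and the groups did not overlap. The rise was 1.55-fold (95% interval 1.31 to 1.83), a log2 fold change of 0.63 (SE 0.12, edgeR adjusted p = 9.23e-05).

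The other three subunits were not called. Nfkb1, on the minus strand of chromosome 3 from 135584655 to 135691547, encodes p105, which is processed to the DNA-binding p50 and in its full form acts as an inhibitor. Its levels were 29.6, 31.6, 29.95 and 28.7 CPM in siNTC and 32.3, 32.2, 33.1 and 33.2 CPM in siErk3 adipocytes. The groups did not overlap, by 0.572 CPM, yet the log2 fold change of 0.13 (95% interval -0.01 to 0.26) did not pass the threshold (edgeR adjusted p = 0.115). With library sizes in place of TMM factors it did (log2 fold change 0.21, edgeR adjusted p = 0.0104).

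Nfkb2 lies on the plus strand of chromosome 19 from 46304320 to 46312385 and encodes p100, the precursor of p52 and an inhibitor of RelB. Its levels were 35.2, 36.9, 35.9 and 33.4 CPM in siNTC and 37.3, 38.3, 36.9 and 35.5 CPM in siErk3 adipocytes, and the groups overlapped. The log2 fold change was 0.07 (95% interval -0.06 to 0.20, edgeR adjusted p = 0.403), with 1.15-fold as the upper end of the interval, and its sign turned with upper-quartile factors (-0.0038). Its exons share 531 bases with AC114539.1, a noncoding RNA gene on the other strand that was not analysed here, and 299 bases with Psd, also on the other strand, which fell from 21.1 ± 2.22 to 14.8 ± 0.730 CPM (SD, n = 4 each), and reads of these genes cannot be told apart without strand information.

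Rel, on the minus strand of chromosome 11 from 23736847 to 23770970, encodes c-Rel, a subunit known mainly from lymphocytes. It was the least abundant of the genes described here, with 24 to 47 counts per library. The siNTC libraries held 2.50, 4.86, 3.03 and 3.37 CPM and the siErk3 libraries 4.45, 4.05, 4.38 and 4.15 CPM. siNTC replicate 2 lay above every siErk3 library and the other three siNTC libraries below them all. The log2 fold change of 0.31 (95% interval -0.07 to 0.69) was not called (edgeR adjusted p = 0.178), but it was called without siNTC replicate 2 (log2 fold change 0.52, edgeR adjusted p = 0.0232).

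**Figure D2:**
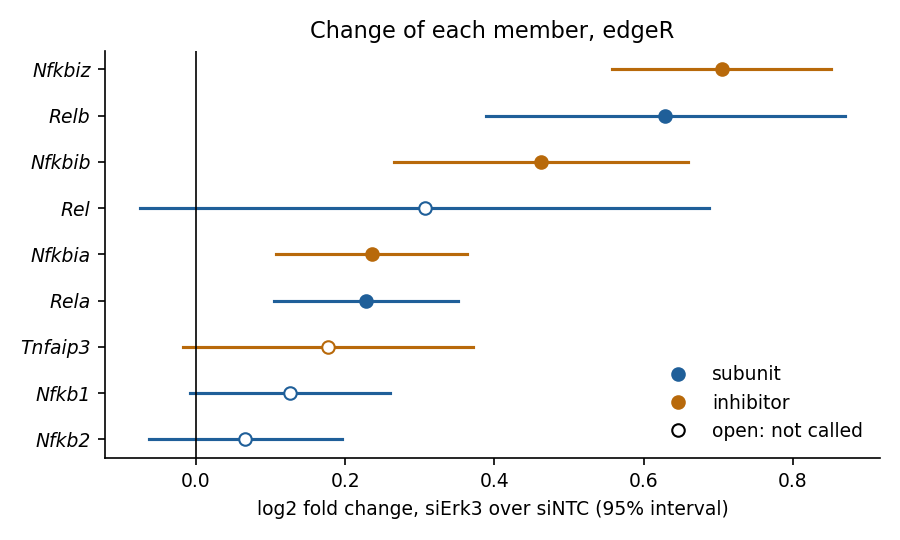
Log2 fold change of the 9 genes, siErk3 over siNTC, with 95% intervals from edgeR, in blue for subunits and orange for inhibitors; filled points are genes at an adjusted p under 0.05. The intervals of Nfkb2, Nfkb1, Tnfaip3 and Rel include 0, and the highest value is 0.70 for Nfkbiz.

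Among the inhibitors, Nfkbiz changed most. It encodes IκBζ, an atypical nuclear member of the IκB family that binds p50 homodimers and is needed for the transcription of a class of secondary target genes while it restrains others. The gene lies on the minus strand of chromosome 16 from 55811375 to 55838899. Nfkbiz was at 28.8, 31.1, 26.2 and 26.3 CPM in the siNTC libraries and at 45.0, 49.95, 45.2 and 43.0 CPM in the siErk3 libraries. The lowest siErk3 library lay 11.9 CPM above the highest siNTC library, the largest such gap in CPM among these 9 genes. The rise was 1.63-fold (95% interval 1.47 to 1.80), a log2 fold change of 0.70 (SE 0.07, edgeR adjusted p = 1.66e-08).

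The classical IκB proteins hold NF-κB pairs in the cytoplasm, and the genes of both that were measured rose. Nfkbib encodes IκBβ, which is degraded more slowly than IκBα and, in contrast to it, is not known as a prompt target of NF-κB. It lies on the minus strand of chromosome 7 from 28758251 to 28767512. Its levels were 13.5, 14.4, 12.1 and 12.7 CPM in siNTC and 19.7, 15.8, 17.7 and 19.5 CPM in siErk3 adipocytes. Replicate 2 was the lowest siErk3 library and still lay 1.44 CPM above the highest siNTC library. The rise was 1.38-fold (95% interval 1.20 to 1.58, log2 fold change 0.46, SE 0.10, edgeR adjusted p = 0.000304). Its exons share 314 bases with Ccer2 and 42 bases with Sirt2, both on the other strand, and without strand information reads of these pairs cannot be told apart. Ccer2 was not analysed here, and Sirt2 had a log2 fold change of 0.05 and was not called.

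Nfkbia encodes IκBα, the prototype of the feedback inhibitors, which NF-κB induces within minutes and which strips NF-κB from DNA. It lies on the minus strand of chromosome 12 from 55489410 to 55492647. The siNTC libraries held 35.1, 32.6, 35.3 and 34.1 CPM and the siErk3 libraries 39.7, 39.0, 40.4 and 42.3 CPM. The groups were 3.71 CPM apart at their nearest libraries, and the rise was 1.18-fold (95% interval 1.08 to 1.29, log2 fold change 0.24, SE 0.06, edgeR adjusted p = 0.00297). The bases upstream of its RefSeq start are shown because this called inhibitor has a κB match, in capitals, next to the start (chr12:55492648-55492897, GRCm38.p6, minus strand).
Nfkbia: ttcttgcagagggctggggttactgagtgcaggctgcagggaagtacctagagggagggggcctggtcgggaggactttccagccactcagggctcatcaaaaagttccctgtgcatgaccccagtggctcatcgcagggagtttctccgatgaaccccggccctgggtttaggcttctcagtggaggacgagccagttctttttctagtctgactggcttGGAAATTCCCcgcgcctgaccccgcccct

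Tnfaip3 encodes A20, a ubiquitin-editing enzyme that takes ubiquitin chains off signaling intermediates upstream of the IκB kinases. It lies on the minus strand of chromosome 10 from 19000910 to 19015657. Its levels were 12.6, 14.9, 13.2 and 12.1 CPM in siNTC and 15.5, 14.6, 14.0 and 15.5 CPM in siErk3 adipocytes. siNTC replicate 2 overlapped the siErk3 libraries, of which 2 lay above it. The log2 fold change was 0.18 (95% interval -0.02 to 0.37) and was not called (edgeR adjusted p = 0.126), while with library sizes in place of TMM factors it was (log2 fold change 0.26, edgeR adjusted p = 0.0256).

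Levels were compared between genes as FPKM, the CPM per kilobase of the union of annotated exons. In siNTC adipocytes Rela was highest at 27.4 ± 1.77 FPKM (SD, n = 4 libraries here and for the following levels), followed by Nfkbia at 21.3 ± 0.752 FPKM. After a wide step came Nfkb2 at 7.71 ± 0.325, Nfkbib at 6.08 ± 0.451 and Nfkbiz at 5.60 ± 0.464 FPKM, of which Nfkbib and Nfkbiz overlapped between libraries. Relb at 2.58 ± 0.417 and Nfkb1 at 2.48 ± 0.101 FPKM overlapped as well. Tnfaip3 followed at 1.82 ± 0.167 and Rel at 0.460 ± 0.135 FPKM. In siErk3 adipocytes Rela and Nfkbia remained the highest, at 32.1 ± 1.97 and 25.1 ± 0.891 FPKM. Nfkbiz, at 9.13 ± 0.586 FPKM, was then the third, and its libraries overlapped those of Nfkbib at 8.38 ± 0.840 FPKM, which in turn overlapped Nfkb2 at 8.07 ± 0.253 FPKM. Relb, at 3.98 ± 0.435 FPKM, no longer overlapped Nfkb1 at 2.71 ± 0.0452 FPKM. This order rests on the length used, as the exon union is 12061 bases for Nfkb1, over 10 transcripts, and 3885 for Relb. The union can be longer than the transcripts present. In CPM Nfkb1 was above Relb, at 29.96 against 10.02 in siNTC and 32.69 against 15.48 in siErk3 adipocytes. Tnfaip3 and Rel stayed lowest, at 2.06 ± 0.1002 and 0.570 ± 0.0251 FPKM.

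The balance between members was compared as the ratio of their counts within a library, which does not depend on how libraries are scaled. The ratio of Nfkbia to Rela was 0.408 in siNTC and 0.410 in siErk3 adipocytes (geometric means), and the log2 ratio ranged from -1.38 to -1.26 and from -1.34 to -1.23. The difference of 0.01 on the log2 scale was smaller than the SD within a group (0.06 and 0.05, n = 4 each) (exact two-sided permutation test, p = 0.857). The ratio of Relb to Rela was 0.118 in siNTC and 0.157 in siErk3 adipocytes, a difference of 0.41 on the log2 scale, with SDs of 0.20 and 0.24 (n = 4 each). The groups overlapped and the difference did not pass the threshold (exact two-sided permutation test, p = 0.0571). The ratio of Nfkbia to Nfkbib was 2.60 in siNTC and 2.23 in siErk3 adipocytes, a difference of -0.23 on the log2 scale (SDs 0.15 and 0.12, exact two-sided permutation test, p = 0.0857). That of Nfkb2 to Nfkb1 was 1.18 and 1.13 (difference -0.06, exact two-sided permutation test, p = 0.143). Adjusted over the 4 ratios, the p-values were 0.857, 0.171, 0.171 and 0.191 in this order. The smallest p that 4 libraries against 4 allow in this exact test is 0.0286 before adjustment. A single ratio at that value would not pass 0.05 once adjusted over the 4 ratios, so the adjusted values could hardly pass.

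**Figure D3:**
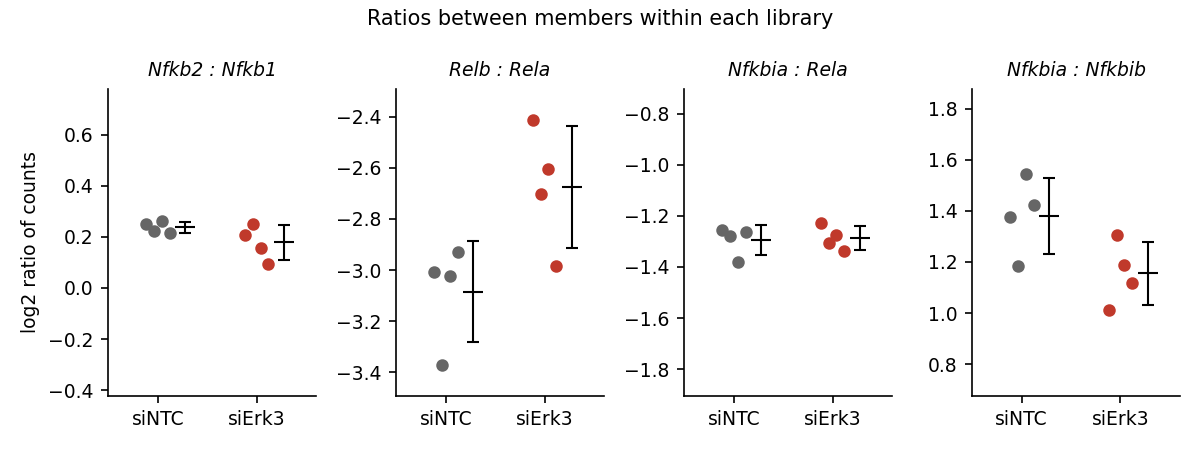
Log2 ratio of the counts of 2 genes in each library, with points for the 4 siNTC (grey) and 4 siErk3 (red) libraries, bars for the mean and SD, and axes that span the same log2 range. The groups overlap in all 4 ratios, and the means of Nfkbia to Rela differ by 0.01.

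Promoter sequence was searched because 5 members moved together. RefSeq (GRCm38.p6) gave windows from 250 bases before to 50 bases after a start for 7 of the 10 genes, in 10 windows in all, with none used here for Nfkb1, Relb and Nfkbiz. The κB consensus was searched on both strands, and overlapping matches were merged. It was found in 7 of these windows, from 5 genes (Nfkb2, Rel, Nfkbia, Nfkbie and Tnfaip3), against 8.46% of all 32817 windows. Several of the 7 windows belong to Nfkb2. The genes were chosen as parts of this pathway, and several are known targets of NF-κB. Matches were therefore likely from the choice of genes, and the contrast is not an independent result. The Nfkb2 windows at chr19:46305445-46305744 and chr19:46305680-46305979 overlap, and the site at chr19:46305696-46305725 was counted in both. Of the measured genes with a match, Nfkbia was called higher, while Nfkb2, Rel and Tnfaip3 were not called. Rela and Nfkbib, both called higher, held no match in their windows. 1 site of each of these 4 measured genes is shown, with matched bases in capitals, to set a called gene beside those not called: Nfkbia at chr12:55492656-55492685, Nfkb2 at chr19:46304689-46304718, Rel at chr11:23771041-23771070 and Tnfaip3 at chr10:19015402-19015431.
Nfkbia site: gactggcttGGAAATTCCCcgcgcctgacc
Nfkb2 site: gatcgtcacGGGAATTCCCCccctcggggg
Rel site: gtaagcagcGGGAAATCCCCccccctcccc
Tnfaip3 site: atttccatcGGAAATCCCCctgttggcaaa
The matches began 29 bases before the RefSeq start of the window in Nfkbia, 39 in Nfkb2, 92 in Rel and 12 in Tnfaip3. In Nfkb2 and Tnfaip3 these sites lie within the annotated gene, downstream of its outermost start at 46304320 and 19015657. The core of the interferon-stimulated response element was in none of the 10 windows and in 3.43% of all windows. The pattern TTCNNNGAA, bound by STAT proteins, was in 1 window, of Nfkb2, and in 8.29% of all windows. A match is a string of letters and not evidence of binding.

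Genes with the most similar pattern over the 8 libraries were listed for the called subunit and the called inhibitor with the lowest p. For Relb these were Hsdl1, Myo10 and Rab20, with Pearson's r of 0.995, 0.990 and 0.983 for log2 CPM. For Nfkbiz they were Sec22b, Mill2 and Bri3, with r of 0.995, 0.994 and 0.994. An r of at least 0.95 was reached by 73 genes for Relb and 885 for Nfkbiz, and the 8 points share the split into siNTC and siErk3, so these values describe these libraries only.

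Around the subunits, the rest of the pathway was described from lists of ligands, receptors and adaptors, kinases, further inhibitors and target genes. The lists were not picked for how their genes moved, although earlier results of these data were known. Their median log2 fold changes were 0.35 for receptors and adaptors, 0.32 for kinases, 0.28 for further inhibitors and 1.76 for target genes, beside 0.24 for the subunits and feedback inhibitors. The value for target genes depends on which genes could enter the table, which holds genes above 1 CPM in at least 4 libraries. Of the 24 target genes tested, 7 had a siNTC mean under 1 CPM, so they passed only through their siErk3 level and had to be higher there, and none had a siErk3 mean under 1 CPM. The other 17 had a median log2 fold change of 1.30, and 10 of them rose at least 2-fold and 4 at least 4-fold. Among these 17, Ccl2 held 8 to 17 counts per siNTC library and so lay under 1 CPM in part of them. Its entry needed its siErk3 level too, so the values for the 17 are not free of this limit. Of the receptors and adaptors 1 gene, Tlr2, had a siNTC mean under 1 CPM, and of the members, kinases, ligands and further inhibitors none did.

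**Figure D4:**
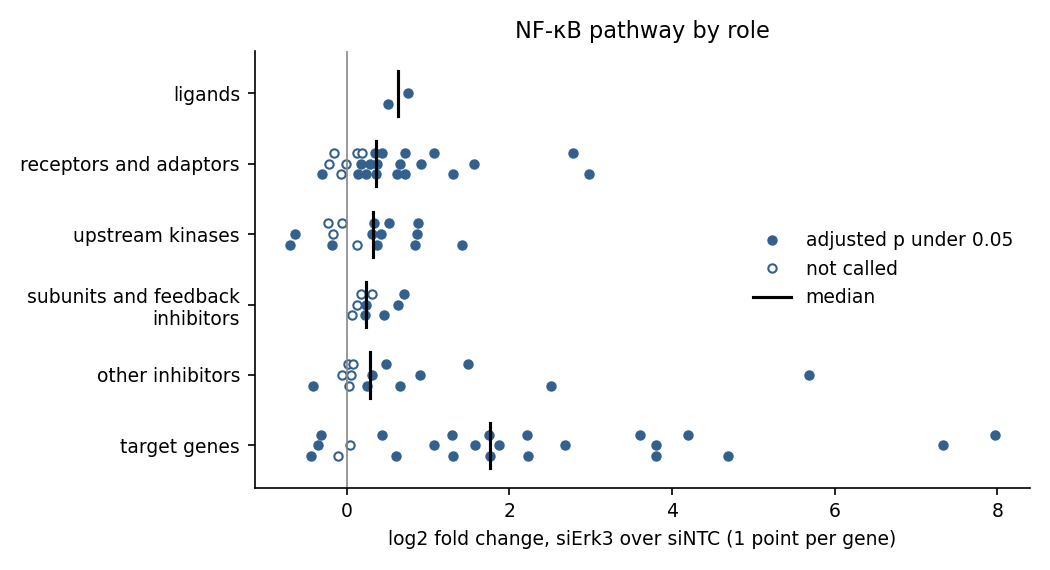
Each point is 1 tested gene of the NF-κB pathway, placed by its log2 fold change of siErk3 over siNTC and grouped by role; filled points were called by edgeR at an adjusted p under 0.05, open ones were not, and black lines mark group medians. The 9 subunits and feedback inhibitors lie between 0.07 and 0.70, while target genes reach 7.97, a fitted value for Cxcl10 that rests on few siNTC counts.

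Upstream, both ligands tested, of 11 listed, were called higher at levels of a few CPM, beside 24.9% higher of all genes tested. Tnfsf12, which encodes TWEAK, was at 3.26 ± 0.738 and 4.63 ± 0.136 CPM, and Il18 at 1.82 ± 0.384 and 3.08 ± 0.775 CPM (SD, n = 4 each, siNTC before siErk3 here and below, edgeR adjusted p = 0.0181 and 0.00867). The call of Tnfsf12 was lost without siNTC replicate 1 or 4 (edgeR adjusted p = 0.0711 and 0.0684) and with DESeq2 (adjusted p = 0.0567). The classical ligands Tnf, Il1a and Il1b were not analysed here. Of 25 receptors and adaptors tested, 18 were higher, 1 was lower and 6 were not called. Without Tlr2, which had a siNTC mean under 1 CPM, 17 of 24 were higher. Over all genes tested, 24.9% were called higher and 23.8% lower. Traf5, an adaptor of tumor necrosis factor receptors, rose from 164 ± 7.52 to 209 ± 1.90 CPM (log2 fold change 0.35, edgeR adjusted p = 3.79e-06). Tnfrsf1a, the main tumor necrosis factor receptor, was at 234 ± 15.3 and 259 ± 8.92 CPM (log2 fold change 0.14, edgeR adjusted p = 0.0309), which was not called in 5 of 8 fits with 1 library left out, with adjusted p-values of 0.0648 to 0.0946, nor with upper-quartile factors (log2 fold change 0.07, edgeR adjusted p = 0.269). Mavs, the mitochondrial adaptor of the RNA sensors, fell from 69.5 ± 4.88 to 56.1 ± 1.76 CPM (log2 fold change -0.31, edgeR adjusted p = 0.000141). Ltbr, the lymphotoxin β receptor upstream of RelB, was at 91.6 ± 5.29 and 99.7 ± 5.65 CPM (log2 fold change 0.12, edgeR adjusted p = 0.0875), and it was called without siNTC replicate 3 or siErk3 replicate 1 (edgeR adjusted p = 0.0397 and 0.0323) and with library sizes only (edgeR adjusted p = 0.00451). The following were named after their values were seen. Tlr3, a receptor of double-stranded RNA, rose from 12.1 ± 2.84 to 83.8 ± 5.79 CPM (edgeR adjusted p = 4.71e-17). Tlr2, a receptor of bacterial lipopeptides, was at 0.729 ± 0.268 and 5.85 ± 1.39 CPM. It passed 1 CPM in 4 libraries only through its siErk3 level, so its direction was not free. The genes of the linear ubiquitin chain assembly complex, Rnf31, Rbck1 and Sharpin, were all higher, with log2 fold changes of 1.31, 0.17 and 0.35.

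Of 16 genes of the kinase list tested, 9 were higher, 3 were lower and 4 were not called, and the kinase complexes moved unevenly. The shares over all genes tested were 24.9% higher and 23.8% lower. Within the IκB kinase complex, Ikbkg, which encodes the scaffold NEMO, rose from 168 ± 11.2 to 212 ± 7.60 CPM and Chuk, which encodes IKKα, from 86.8 ± 6.38 to 116 ± 5.61 CPM (log2 fold changes 0.33 and 0.42, edgeR adjusted p = 2.07e-05 and 3.08e-06). Ikbkb, which encodes IKKβ, had a log2 fold change of -0.06 and was not called (edgeR adjusted p = 0.502). Map3k7, which encodes TAK1, the kinase that activates the IκB kinases, fell from 45.5 ± 2.15 to 28.02 ± 0.722 CPM (log2 fold change -0.70, edgeR adjusted p = 2.83e-09). Of its binding partners, Tab3 fell (log2 fold change -0.64, edgeR adjusted p = 1.59e-06), and Tab1 and Tab2 were at -0.17 and 0.12 and were not called (edgeR adjusted p = 0.13 and 0.0959). Tab2 was called higher without siNTC replicate 2 (log2 fold change 0.17, edgeR adjusted p = 0.0223) and with library sizes only (0.21, edgeR adjusted p = 0.00712). Irak1 fell from 50.6 ± 2.59 to 44.7 ± 1.87 CPM (edgeR adjusted p = 0.017), which was not called without siErk3 replicate 1 (edgeR adjusted p = 0.0624) and with library sizes only (edgeR adjusted p = 0.208). The IκB kinase-related kinases Tbk1 and Ikbke, known for activating interferon regulatory factors, had log2 fold changes of 0.88 and 0.86 and were called higher (edgeR adjusted p = 3.11e-09 and 3.56e-06). Ikbkb, Tab1, Tab3, Tbk1 and Ikbke were named after their values were seen.

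Of 14 further inhibitors tested, 8 were higher, 1 was lower and 5 were not called. The shares over all genes tested were 24.9% higher and 23.8% lower. Usp18 rose from 3.62 ± 0.413 to 188 ± 3.93 CPM (log2 fold change 5.69, edgeR adjusted p = 6.41e-25), and is known above all as an interferon-induced protease that removes ISG15 and damps interferon signaling. Tax1bp1, a partner of A20, rose from 167 ± 29.7 to 208 ± 18.7 CPM with overlapping groups (log2 fold change 0.32, edgeR adjusted p = 0.00461, 0.0666 with DESeq2). Zc3h12a, which encodes the RNase Regnase-1, fell from 21.5 ± 0.726 to 16.1 ± 1.80 CPM (log2 fold change -0.42, edgeR adjusted p = 0.000335). Rnf11, also a partner of A20, was at 336 ± 29.2 and 324 ± 25.4 CPM and was not called (log2 fold change -0.05, edgeR adjusted p = 0.515), and its sign turned with library sizes only (0.03) and without siNTC replicate 4 (0.0039). Bcl3, an atypical nuclear IκB like Nfkbiz that binds p50 and p52, rose from 4.22 ± 0.815 to 11.8 ± 0.694 CPM (log2 fold change 1.49, edgeR adjusted p = 2.53e-09), and Traf3, which restrains the noncanonical pathway, from 9.54 ± 0.923 to 14.98 ± 1.496 CPM (log2 fold change 0.65, edgeR adjusted p = 1.99e-05). Bcl3 and Traf3 were named after their values were seen.

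Of 24 target genes tested, of 33 listed, 19 were higher, 3 were lower and 2 were not called. Without the 7 that had a siNTC mean under 1 CPM (Ccl5, Ccl7, Cxcl5, Cxcl10, Il6, Lcn2 and Ptgs2), 12 of 17 were higher. Ccl2 is among these 12, although its entry needed its siErk3 level too. The shares over all genes tested were 24.9% higher and 23.8% lower. Tapbp and Tap1, which load peptides onto MHC class I and are also induced by interferon, rose from 329 ± 15.9 to 1115 ± 26.6 CPM and from 20.1 ± 1.92 to 244 ± 6.23 CPM (edgeR adjusted p = 1.75e-18 and 7.64e-23). The antioxidant enzyme gene Sod2 fell from 177 ± 7.43 to 139 ± 3.49 CPM, and Cflar, which blocks caspase 8 activation, from 72.2 ± 4.71 to 57.7 ± 4.57 CPM (log2 fold changes -0.35 and -0.32, edgeR adjusted p = 4.32e-06 and 0.000215). Xiap was at 67.0 ± 8.14 and 68.8 ± 5.21 CPM and was not called (log2 fold change 0.04, edgeR adjusted p = 0.703), and its sign turned with upper-quartile factors (-0.03) and without siNTC replicate 3 (-0.04) or siErk3 replicate 4 (-0.0086). Ccl2, Ccl7, Cxcl10, Il6 and Vcam1 were named after their values were seen. The chemokine gene Ccl2 was at 1.28 ± 0.425 and 18.0 ± 0.373 CPM, and the chemokine gene Ccl7 at 0.860 ± 0.156 and 22.4 ± 2.18 CPM. Ccl2, Ccl7, Cxcl10 and Il6 needed their siErk3 level to pass 1 CPM in 4 libraries, so their direction was not free. Cxcl10, also an interferon target, rose from 0.313 ± 0.191 to 81.4 ± 5.40 CPM, with 1 to 5 counts per siNTC library and 769 to 883 per siErk3 library. Il6 held 0 to 2 counts per siNTC library and 17 to 29 per siErk3 library, and the adhesion molecule gene Vcam1 rose from 13.9 ± 1.28 to 41.7 ± 3.53 CPM. Several genes of this list, Tap1, Psmb9, Irf1 and Cxcl10 among them, have promoters that interferon-activated factors also use, so the list does not separate both pathways.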

How the data were processed

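Poly(A) RNA of differentiated adipocytes, in 4 siErk3 and 4 siNTC libraries, was sequenced by the authors after preparation with a kit that does not mark strand. The authors deposited raw read counts per gene, not normalized. The submitters list Bowtie2, FastQC, edgeR and bcl2fastq as tools, with mm10 as the build. The counting program and annotation are not given in the sources used here. Each of the deposited genes exceeds 1 CPM in no fewer than 4 libraries. A second table, with the log2 fold changes, average log2 CPM and p-values of the authors' own comparison, was not used. All 8 count columns matched a sample title.

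The count test was run with edgeR 4.0.16 under R 4.3.3, using filterByExpr defaults (minimum count 10, minimum total 15), which kept 17972 of 18088 genes, TMM factors, the quasi-likelihood test without covariates, and Benjamini-Hochberg adjustment over all genes tested, with calls under 0.05. The study names edgeR and no test within it. The common biological coefficient of variation was 6.08%. Intervals are 95%. The fits were also run on simulated counts in which few genes changed, unlike in these data. That run does not test the scaling factors for data such as these, and no result of it is used here. Alternatives were DESeq2 1.42.0, limma-voom (limma 3.58.1), RLE, upper-quartile or no scaling factors, no filter, a minimum of 5 CPM in 4 libraries, the replicate number as a block, and leaving out each library; for ratios, CPM with 0.5 added. Ratios used exact permutation tests (Python 3.11.15, scipy 1.17.1). Coordinates and exon lengths come from GENCODE M21 (mm10), promoters from RefSeq.

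Replicates of a group differed by more than sampling noise in every pair (chi-square per gene 1.95 to 8.15). The members and gene lists were chosen with earlier results of these data known. Genes outside the members were named by a rule: of each list the 2 most abundant called genes per direction and the most abundant gene not called; others are marked in the text. Counts of 24 to 1083 per library lie behind the members' values, and floors or intervals from counts would cover counting error only.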

Additional observations from a re-analysis of the deposited data

Results flagged for a closer look

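In 3 of 68 sets of 4 libraries, 1 library stood far from the rest, where chance gives about 1 in 20 groups, or 3.4. None of them belongs to a subunit or feedback inhibitor of NF-κB. Irak1 was at 41.9 CPM in siErk3 replicate 1 and at 45.4 to 45.8 CPM in the others. Traf5 was at 211.9 CPM in siErk3 replicate 2 and at 207.9 to 208.5 CPM in the others. That difference is small for this level and stood out because the other libraries lay close together. Il18 was at 2.40 CPM in siNTC replicate 1 and at 1.57 to 1.68 CPM in the others.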

How the results depend on the processing

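Over 16 alternatives, 5 to 7 of the 9 subunits and feedback inhibitors were called higher and 0 lower, and Rela, Relb, Nfkbia, Nfkbib and Nfkbiz were called higher under each alternative, with log2 fold changes of 0.16 to 0.31, 0.52 to 0.72, 0.17 to 0.32, 0.39 to 0.55 and 0.63 to 0.79. With library sizes only, 7 were called, since Nfkb1 and Tnfaip3 passed, and without siNTC replicate 2 there were 6, since Rel passed (0.52). With upper-quartile factors the log2 fold change of Nfkb2 was -0.0038. Among all genes called, 51.1% were higher with TMM, 65.1% without scaling factors and 39.7% with upper-quartile factors, which moved the median of all genes by 0.09 and -0.07 on the log2 scale. Lower kinase genes were 5 in place of 3 with upper-quartile factors, and 2 to 3 when 1 library was left out. Higher receptor and adaptor genes were 15 to 19 in place of 18, with 15 under upper-quartile factors and without siNTC replicate 4. Lower receptor and adaptor genes were 3 in place of 1 with upper-quartile factors and 2 with limma-voom, with a minimum of 5 CPM and with the replicate block, and 1 to 2 when 1 library was left out (2 without siNTC replicate 4 or siErk3 replicate 2). Higher ligand genes were 1 in place of 2 with DESeq2, and 1 to 2 when 1 library was left out (1 without siNTC replicate 1 or 4); at a minimum of 5 CPM none was tested. The causes were not tested. Rnf11 reversed with library sizes only (0.033) and without siNTC replicate 4 (0.0039; range -0.0962 to 0.0039 with 1 library left out), and Xiap with upper-quartile factors (-0.032) and without siNTC replicate 3 (-0.0437) or siErk3 replicate 4 (-0.0086; range -0.0437 to 0.0863). The log2 ratio of Nfkbia to Rela differed by -0.0207 to 0.0252 when 1 library was left out. With 3 libraries against 4 the smallest p of the exact test is 0.0571, so ratios could not pass 0.05 there and these fits say nothing about their stability. Replicate numbers did not pair the libraries: same-numbered libraries correlated at -0.02 to 0.24 in their deviations from the group means, above 0.1 in 1 of 4 pairs, and 3 of 8 libraries correlated best with their own number. The replicate block left 5 members called higher, and the paired differences of the 4 ratios cannot pass 0.05 with 4 pairs. Rel, at 24 to 47 counts per library, is the member whose depth limits the comparison most.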

Other observations

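The spread between libraries was set beside the counting error for each member. Rela had a coefficient of variation of 6.45% over the siNTC libraries and 6.13% over the siErk3 libraries (n = 4 each), where its mean count alone gives 3.52% and 3.15%. Relb had 16.2% and 10.9%, where counting gives 10.2% and 7.95%. Nfkb1 and Nfkb2 stayed below their counting error in both groups, at 4.04% and 1.67% against 5.90% and 5.47% for Nfkb1 and at 4.22% and 3.13% against 5.43% and 5.14% for Nfkb2. Rel had 29.4% over the siNTC libraries but 4.40% over the siErk3 libraries, where counting gives 17.4% and 15.2%. Among the inhibitors, Nfkbiz had 8.28% and 6.42%, where counting gives 6.09% and 4.62%, and Nfkbia had 3.53% and 3.56%, where counting gives 5.52% and 4.93%. Nfkbib had 7.42% over the siNTC and 10% over the siErk3 libraries, where counting gives 8.89% and 7.34%, and Tnfaip3 had 9.17% and 4.86%, where counting gives 8.89% and 8.10%. With 4 libraries a group these coefficients are themselves uncertain, and no test was made of them.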
